A study of Mus musculus with 16 samples.

Results

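The BCL2 family decides at the mitochondrial outer membrane whether a T cell survives, and 10 of its genes were followed here in CD4+ T cells from spleen: Bcl2, Bcl2l1, Mcl1, Bcl2a1b, Bcl2a1d, Bax, Bak1, Bcl2l11, Bbc3 and Pmaip1. They are the rows with these symbols among 53090 genes counted in each of 16 RNA sequencing libraries, and all 10 passed the filter on low counts in every comparison. Naïve T cells (Tn) were taken freshly from the spleen by immunomagnetic selection of CD44low CD62Lhigh CD4+ cells. Treg samples came from cells kept for 48 h with antibodies to CD3 and CD28, recombinant human TGF-beta and recombinant mouse IL-2. Both states were measured in wild-type (WT) C57BL/6 mice and in Aim2-/- mice on the C57BL/6 background, which lack the cytosolic DNA sensor AIM2 in all cells, with 4 libraries in each of the 4 groups. Both lines came from a commercial supplier, were bred in one facility and were housed together after weaning. Animals were matched for age and sex, which are not given for these libraries, and whether they were littermates is not stated. The Treg samples were not sorted for FOXP3, so Treg here names a culture condition, and activation, cytokines and time in culture changed together.

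Proteins of this family fall into 3 roles. The pro-survival proteins, encoded by Bcl2, Bcl2l1 (BCL-XL), Mcl1 and the Bcl2a1 genes (A1), hold in check the effectors BAX and BAK, which permeabilise the mitochondrial outer membrane once freed and release cytochrome c. The BH3-only proteins BIM (Bcl2l11), PUMA (Bbc3) and NOXA (Pmaip1) start death by binding the pro-survival proteins, and NOXA prefers MCL1 and A1. In T cells, BCL2 and MCL1 are known for the survival of resting cells, BCL-XL and A1 for activated cells, and BIM for the death of cells deprived of cytokine.

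Libraries held between 22516424 and 34533316 counts, so that the 3 counts used as a detection floor corresponded to 0.0869 to 0.1332 CPM (counts scaled to a common library total). Aim2 was at 32.3 to 43.3 CPM in the WT libraries and at 6.61 to 10.8 CPM in the Aim2-/- libraries. The ranges of the genotypes were far apart, in the direction of the labels. Aim2 reads well above the detection floor remained in every Aim2-/- library, and their source was not tested. Foxp3, the lineage factor of regulatory T cells, was at 1.98 to 4.02 CPM in Tn and 278 to 573 CPM in Treg. It belongs to a list of 6 activation or Treg markers. Il2ra (2.66 to 4.69 and 1300 to 1512 CPM), Tnfrsf4 (5.32 to 13.2 and 125 to 184) and Tnfrsf18 (30.9 to 47.1 and 61.5 to 82.9) were also higher in every Treg library. Ctla4 (12.8 to 80.6 and 55.1 to 84.2 CPM) and Ikzf2 (2.66 to 3.68 and 3.41 to 14.7) overlapped between the states. Neutrophil markers (6 of 6) were at or below 3 counts in every library. Titles number the replicates, and only those of Tn name mice, without saying whether a library came from a single animal. Nothing else says how the cells of each library were obtained, so p-values describe the spread between these samples. CPM is a share of each library's RNA, and in such bulk samples fewer cells of a type and less RNA per cell cannot be told apart.

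The windows around transcription starts were read for the letters GTAAACA, a motif of forkhead factors, which include the FOXO factors. FOXO factors are known to drive Bcl2l11 and Bbc3 in resting or cytokine-deprived cells, but the letters do not single out a factor. The motif was chosen after the sequences had been seen. On either strand it occurred in 3.65% of 32851 RefSeq windows of 300 bases (250 before to 50 after a start, GRCm38.p6) and in 2 of the 14 windows of 9 members, 1 each for Bcl2l11 and Bbc3. These 2 windows belong to the members that fell most in culture and are printed for that reason, each 5′ to 3′ on the plus strand, with the match in capitals (TGTTTAC is the same motif on the opposite strand).
Bcl2l11, chr2:128125788-128126087: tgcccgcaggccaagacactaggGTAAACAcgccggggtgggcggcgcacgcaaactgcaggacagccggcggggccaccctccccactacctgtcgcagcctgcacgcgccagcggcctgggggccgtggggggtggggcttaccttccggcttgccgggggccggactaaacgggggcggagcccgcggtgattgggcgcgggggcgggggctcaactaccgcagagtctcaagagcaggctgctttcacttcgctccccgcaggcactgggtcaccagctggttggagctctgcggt
Bbc3, chr7:16310011-16310310: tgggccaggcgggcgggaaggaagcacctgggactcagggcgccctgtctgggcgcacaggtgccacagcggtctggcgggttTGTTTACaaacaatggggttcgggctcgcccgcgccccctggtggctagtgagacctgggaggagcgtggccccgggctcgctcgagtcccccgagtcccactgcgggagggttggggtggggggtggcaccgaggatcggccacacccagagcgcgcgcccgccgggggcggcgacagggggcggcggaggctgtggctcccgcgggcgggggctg
The matches began 227 bases before the start in Bcl2l11 and 167 bases before it in Bbc3. Each gene had other start windows without a match. Other motifs searched on both strands were the MYC-type CACGTG, in 7.15% of all windows and in windows of Bax and Bbc3, and the STAT-type TTCNNNGAA, in 8.30% of all windows and in no member window. The NF-kB motif was in 8.46% of all windows and in windows of Bbc3 and Bcl2l1. These are letter matches and show no binding. Mcl1 and Bcl2, which also fell in culture, had no GTAAACA match. Whether the motif has a part in the fall of any member was not tested.

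Culture under Treg conditions moved every member, in both genotypes. Of the 10 genes, 6 rose and 4 fell in WT: Bcl2l1, Bcl2a1b, Bcl2a1d, Bax, Bak1 and Pmaip1 were higher, while Bcl2, Mcl1, Bcl2l11 and Bbc3 were lower. The same genes moved the same way in Aim2-/-. Calls were made with the quasi-likelihood test of edgeR at an adjusted p under 0.05 (Benjamini-Hochberg, over every gene tested), and all adjusted p given are from it unless another tool is named. The count has to be read against the background, since the culture called 76.9% of 13675 genes in WT (37.7% higher and 39.2% lower) and 79.3% of 13713 genes in Aim2-/- (39.1% higher and 40.2% lower). Ranges of the 4 Tn and 4 Treg libraries were separate for 10 of 10 members in WT, against 72.9% of all genes, and for 9 of 10 in Aim2-/-, against 74.8%, the exception being Bax. The median log2 fold change of the members was 0.56 in WT and 0.52 in Aim2-/-, where the median of all genes was -0.05 and -0.04. The members differed from each other in the size of the change, which is given by role.

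**Figure D1:**
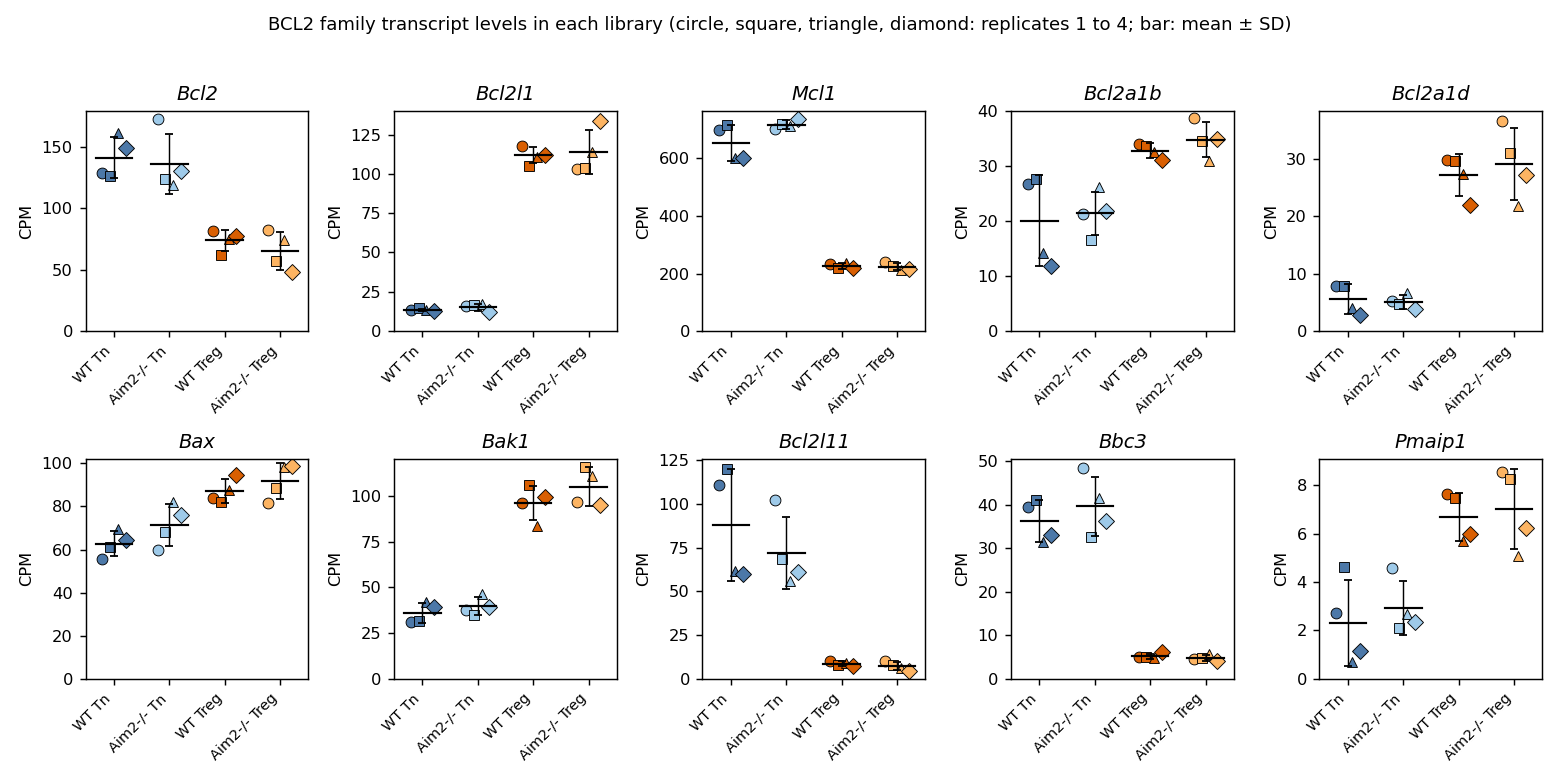
CPM of each of the 10 genes (vertical axes from 0) in the 4 groups, with 1 symbol per library by replicate number and a bar with whiskers for the mean ± SD (n = 4). Bcl2l1 lay at 12 to 16.9 CPM in all Tn libraries and at 103 to 134 CPM in all Treg libraries, and Bcl2l11 at 55.7 to 120 CPM in Tn and 4.57 to 10.2 CPM in Treg.

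Among the 5 pro-survival members, Bcl2l1 (ENSMUSG00000007659.18, GRCm38 chromosome 2 from 152780668 to 152831728, minus strand) had the largest rise. Its levels in WT were 13.2, 14.5, 13.6 and 12.7 CPM in Tn and 118, 105, 111 and 112 CPM in Treg. In Aim2-/- they were 15.7, 16.4, 16.9 and 12 CPM in Tn and 103, 104, 114 and 134 CPM in Treg. No Treg library of either genotype came near the Tn range. Expressed as log2, Treg minus Tn was 3.02 in WT (standard error 0.08, 95% interval 2.84 to 3.19, adjusted p = 1.6e-09) and 2.89 in Aim2-/- (standard error 0.13, 95% interval 2.61 to 3.17, adjusted p = 3.3e-09), or 8.1-fold and 7.4-fold. It ranked 853 from the top of 13675 genes in WT and 879 of 13713 in Aim2-/-.

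Mcl1 (ENSMUSG00000038612.16, chromosome 3 from 95658788 to 95663176, plus strand), which encodes a short-lived pro-survival protein, moved the other way. WT Tn libraries held 700, 715, 601 and 601 CPM, and WT Treg libraries 232, 218, 236 and 220 CPM. In Aim2-/-, Tn libraries held 701, 719, 712 and 739 CPM and Treg libraries 241, 225, 212 and 217 CPM. All 8 Treg libraries lay far below all 8 Tn libraries, with a change of -1.56 on the log2 scale in WT (standard error 0.08, adjusted p = 9.4e-08) and -1.69 in Aim2-/- (standard error 0.07, adjusted p = 3.2e-09).

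Bcl2 (ENSMUSG00000057329.7, chromosome 1 from 106538178 to 106714274, minus strand) also fell, by less. Its WT levels were 129, 126, 161 and 149 CPM in Tn and 81.8, 61.7, 74.8 and 77.8 CPM in Treg. In Aim2-/- they were 173, 124, 119 and 130 CPM in Tn and 82.1, 56.7, 74.1 and 48.1 CPM in Treg. The states did not overlap, although replicate 1 of Aim2-/- Tn stood above its group. On the log2 scale the difference came to -0.96 in WT (standard error 0.11, adjusted p = 2.7e-05) and -1.07 in Aim2-/- (standard error 0.18, adjusted p = 0.00024).

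The A1 protein is encoded in the mouse by several near-identical genes on chromosome 9, and their reads are hard to separate. Bcl2a1b (ENSMUSG00000089929.1, 89199209 to 89207827, plus strand) and Bcl2a1d (ENSMUSG00000099974.1, 88723285 to 88731914, minus strand) have open reading frames of 519 bases that differ at 6 positions and are 98.8% identical. Counted from 1 at the A of the start codon, with the base of Bcl2a1b first, the differences are G4T, T48C, A94C, G312A, C381G and T490A. The first 60 bases are shown because they hold the first 2 of these positions, in capitals, and show how little sequence a read has to tell the genes apart (GENCODE M21 transcripts):
Bcl2a1b: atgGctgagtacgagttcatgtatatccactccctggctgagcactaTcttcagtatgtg
Bcl2a1d: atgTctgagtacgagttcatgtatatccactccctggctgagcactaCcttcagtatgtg
Of all 51-base words in the transcripts, the length of 1 read, 78.7% for Bcl2a1b and 79.0% for Bcl2a1d also occur in another gene. Among the other members this share was 8.44% for Bax, all with Gm45808, and at most 0.122% elsewhere. Counts of both Bcl2a1 genes were fractional in all 16 libraries. How the authors' counting divided shared reads was not tested, and the values of each gene alone are uncertain. Bcl2a1a stayed at or below 0.158 CPM and Bcl2a1c at or below 0.754 CPM. The read-through gene Gm29094, which overlaps Bcl2a1b, stayed at or below 1.39 CPM.

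Bcl2a1b had uneven Tn values: 26.7, 27.7, 14.2 and 11.9 CPM in WT Tn, against 34.0, 33.7, 32.5 and 31.1 CPM in WT Treg. Aim2-/- libraries held 21.3, 16.5, 26.2 and 21.9 CPM in Tn and 38.7, 34.6, 30.9 and 34.9 CPM in Treg. Every Treg library was above every Tn library, but replicates 1 and 2 of WT Tn were close to the Treg range and replicates 3 and 4 were not. Treg minus Tn in log2 was 0.68 in WT (standard error 0.26, 95% interval 0.09 to 1.26, adjusted p = 0.037) and 0.69 in Aim2-/- (standard error 0.13, adjusted p = 0.00054). The WT call was lost without Tn replicate 3 (0.54, adjusted p = 0.074), Tn replicate 4 (0.48, adjusted p = 0.057), or Treg replicates 1, 2 or 3 in turn (0.70 to 0.73, adjusted p = 0.052 to 0.059). It was also lost with no filter on low counts (0.72, adjusted p = 0.059). The WT value was 0.34 from replicates 1 and 2 alone and 1.26 from replicates 3 and 4 alone, and the Aim2-/- values were 0.96 and 0.45.

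Bcl2a1d rose more steeply. WT levels were 7.81, 7.91, 4.01 and 2.83 CPM in Tn and 29.8, 29.5, 27.3 and 21.9 CPM in Treg. Aim2-/- levels were 5.28, 4.72, 6.61 and 3.77 CPM in Tn and 36.6, 31.0, 21.8 and 27.2 CPM in Treg. The change in log2 was 2.23 in WT (standard error 0.31, adjusted p = 0.00011) and 2.51 in Aim2-/- (standard error 0.20, adjusted p = 3.6e-07), with no overlap between the states. Bcl2a1d made up 19.2% to 22.6% of the Bcl2a1b and Bcl2a1d reads in WT Tn and 41.3% to 46.7% in WT Treg, a split that rests on the shared reads described above. With the 4 Bcl2a1 rows added together, which leaves only reads shared with genes outside these rows, such as Gm29094, to be divided, the levels were 34.7, 35.9, 18.3 and 14.8 CPM in WT Tn and 64.2, 63.5, 60.2 and 53.4 CPM in WT Treg. The summed log2 fold change was 1.19 in WT (standard error 0.27, adjusted p = 0.0029) and 1.26 in Aim2-/- (standard error 0.14, adjusted p = 7.5e-06). A1 is abundant in granulocytes, and the neutrophil markers S100a8, S100a9, Ly6g, Cxcr2, Retnlg and Csf3r together stayed at or below 0.113 CPM. Whether other cells supplied part of the Bcl2a1 reads was not tested.

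Both effectors rose. Bak1 (ENSMUSG00000057789.13, chromosome 17 from 27019810 to 27029009, minus strand) was at 30.9, 31.7, 42.1 and 39.0 CPM in WT Tn and 96.0, 106, 83.5 and 99.2 CPM in WT Treg. Its Aim2-/- levels were 37.7, 35.0, 46.6 and 39.1 CPM in Tn and 96.5, 116, 111 and 94.7 CPM in Treg. In log2 terms the change was 1.39 in each genotype, with a standard error of 0.12 in WT (adjusted p = 3.2e-06) and 0.11 in Aim2-/- (adjusted p = 2.8e-07), and no Treg library overlapped the Tn range. Counts of Bak1 were fractional in 16 libraries even though no 51-base word of its transcripts occurs in another gene.

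Bax (ENSMUSG00000003873.11, chromosome 7 from 45461697 to 45466898, minus strand) changed least of all members. It stood at 55.7, 61.0, 69.6 and 64.3 CPM in WT Tn and 83.7, 82.0, 87.8 and 94.4 CPM in WT Treg. Aim2-/- libraries held 59.9, 67.9, 82.2 and 76.0 CPM in Tn and 81.7, 88.6, 98.2 and 98.6 CPM in Treg, so that the highest Tn library lay just above the lowest Treg library. Expressed as log2, Treg minus Tn was 0.44 in WT (standard error 0.08, adjusted p = 0.00082) and 0.35 in Aim2-/- (standard error 0.11, adjusted p = 0.0094). The Aim2-/- call was lost without Tn replicate 1 (0.22, adjusted p = 0.061) or Tn replicate 2 (0.28, adjusted p = 0.055).

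The BH3-only genes split. Bcl2l11 (ENSMUSG00000027381.16, chromosome 2 from 128126038 to 128162547, plus strand), which encodes BIM, had the largest fall of the members. WT levels were 111, 120, 61.4 and 59.7 CPM in Tn and 10.2, 7.82, 9.27 and 7.04 CPM in Treg. Aim2-/- levels were 102, 68.6, 55.7 and 61.0 CPM in Tn and 10.2, 7.79, 6.13 and 4.57 CPM in Treg. Within Tn the libraries formed a high set (WT replicates 1 and 2, and Aim2-/- replicate 1) and a low set, but even the lowest Tn library was well above the highest Treg library. On the log2 scale the difference came to -3.39 in WT (standard error 0.27, 95% interval -4.01 to -2.78, adjusted p = 2.6e-06) and -3.33 in Aim2-/- (standard error 0.27, 95% interval -3.93 to -2.74, adjusted p = 8.7e-07), a level 10.5-fold and 10.1-fold lower. It ranked 501 from the bottom of 13675 genes in WT and 644 of 13713 in Aim2-/-.

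Bbc3 (ENSMUSG00000002083.13, chromosome 7 from 16308393 to 16318205, plus strand), which encodes PUMA, was almost as strongly reduced. It was at 39.5, 41.2, 31.5 and 33.1 CPM in WT Tn and at 4.93, 5.01, 4.89 and 6.11 CPM in WT Treg. In Aim2-/- the levels were 48.4, 32.7, 41.5 and 36.3 CPM in Tn and 4.6, 4.88, 5.73 and 4.01 CPM in Treg. The states lay far apart in both genotypes. Treg libraries spanned 4.89 to 6.11 CPM in WT, with replicate 4 apart from the others, and 4.01 to 5.73 CPM in Aim2-/-. Treg minus Tn in log2 was -2.83 in WT (standard error 0.13, adjusted p = 4.5e-08) and -3.05 in Aim2-/- (standard error 0.15, adjusted p = 8.7e-09).

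Pmaip1 (ENSMUSG00000024521.7, chromosome 18 from 66458533 to 66465565, plus strand), which encodes NOXA, rose from a low level. WT Tn libraries held 2.73, 4.63, 0.676 and 1.16 CPM, and WT Treg libraries 7.66, 7.47, 5.70 and 6 CPM. Aim2-/- levels were 4.57, 2.11, 2.67 and 2.36 CPM in Tn and 8.56, 8.26, 5.09 and 6.24 CPM in Treg. WT Tn was the most scattered group, with replicates 3 and 4 well below replicates 1 and 2, and no Tn library reached the Treg range of its genotype. The change in log2 was 1.51 in WT (standard error 0.49, 95% interval 0.42 to 2.61, adjusted p = 0.017) and 1.26 in Aim2-/- (standard error 0.27, adjusted p = 0.001). The WT value was 1.07 from replicates 1 and 2 alone and 2.63 from replicates 3 and 4 alone.

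**Figure D2:**
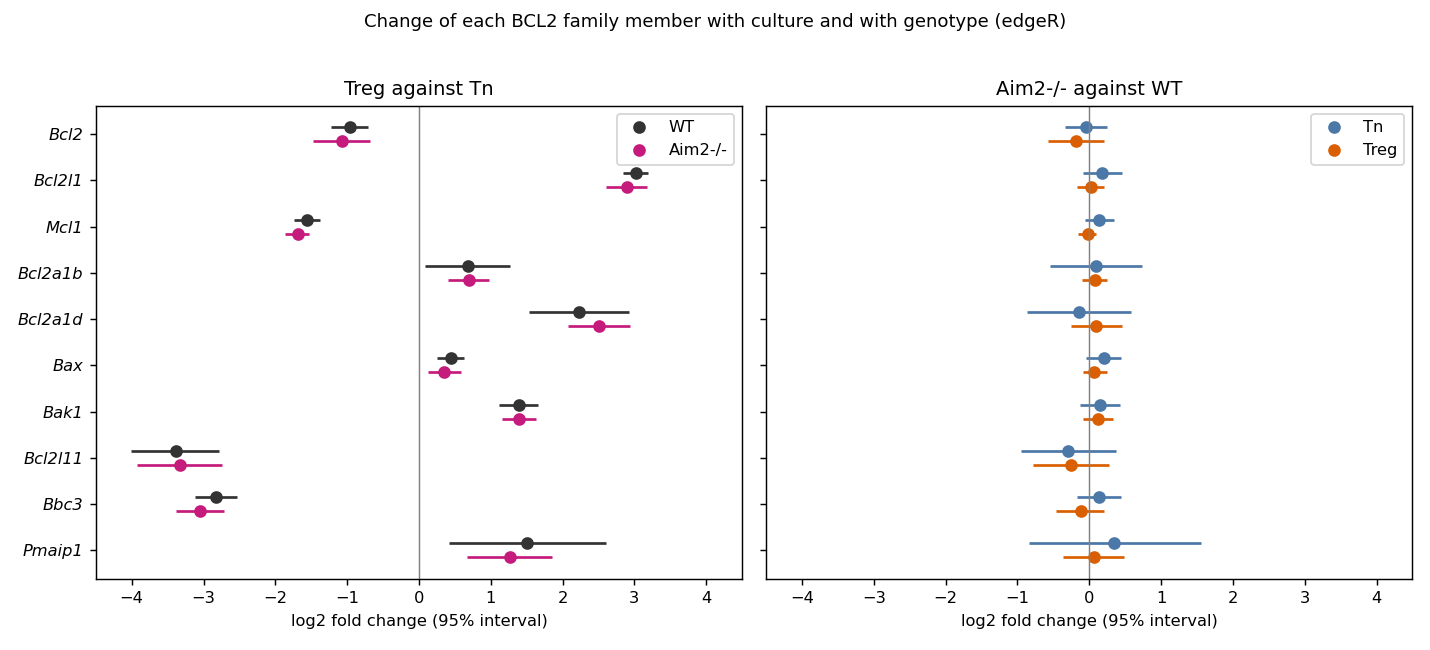
Log2 fold change of each member from edgeR (points) with its 95% interval (lines), for Treg against Tn in WT and Aim2-/- on the left and for Aim2-/- against WT in Tn and Treg on the right, on 1 scale. The culture values run from -3.39 for Bcl2l11 to 3.02 for Bcl2l1 in WT, and all 20 genotype intervals include 0.

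Set side by side per kilobase of exon, the members changed order. Exon lengths were those of all annotated transcripts merged, so a gene used mainly as a short form, as Bcl2l11 can be, is placed too low. In WT Tn the mean was 191 CPM per kb for Mcl1, 39.8 for Bax and 24.6 for Bcl2a1b. Bbc3 (17.1), Bcl2 (15.4), Bak1 (14.9) and Bcl2l11 (11 CPM per kb) followed, each with a library range that overlapped the next, and so did Bcl2a1b with Bbc3 and Bcl2l11 with Bcl2a1d. The lowest were Bcl2a1d (6.53), Bcl2l1 (2.94) and Pmaip1 (0.841 CPM per kb). In WT Treg, Mcl1 (66.2 CPM per kb) and Bax (55.2) still led. Bcl2a1b (40.2) and Bak1 (39.9) overlapped, as did Bcl2a1d (31.4) and Bcl2l1 (24.3 CPM per kb), and below them stood Bcl2 (8.08), Bbc3 and Pmaip1 (2.46 each, overlapping) and Bcl2l11 (1.07). In Aim2-/- Tn, Bak1 (16.5) came before Bcl2 (14.9 CPM per kb), which overlapped it but not Bcl2l11 (8.93), and the order was otherwise that of WT Tn. Aim2-/- Treg ran from Mcl1 (65.4) and Bax (58.2), which overlapped, through Bak1 (43.5), Bcl2a1b (42.6), Bcl2a1d (33.7) and Bcl2l1 (24.8), each overlapping the next up to Bcl2l1, to Bcl2 (7.13), Pmaip1 (2.58), Bbc3 (2.26) and Bcl2l11 (0.894 CPM per kb).

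The make-up of the pro-survival transcripts differed between the states. Mcl1 provided 77.7% to 82.7% of the summed pro-survival CPM per kb in WT Tn libraries and 37.7% to 40.0% in WT Treg libraries. Bcl2l1 provided 1.09% to 1.35% and 13.6% to 15.2%, and Bcl2a1b and Bcl2a1d together 8.39% to 16% and 39.5% to 44.7%. Bcl2 was a minor share in both, at 5.12% to 8.07% and 3.99% to 5.29%. In Aim2-/-, Mcl1 provided 78.7% to 83.1% in Tn and 36.7% to 39.2% in Treg, and Bcl2l1 0.992% to 1.41% and 11.7% to 16.9%. The ratio of Bcl2l1 to Bcl2, per kb, had a median of 0.187 in WT Tn and 2.92 in WT Treg, and of 0.224 and 3.37 in Aim2-/-. No Tn library overlapped a Treg library in that ratio.

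The 3 BH3-only genes, summed per kb, equalled 10.4% to 13.4% of the pro-survival sum in WT Tn and 3.21% to 3.71% in WT Treg. In Aim2-/- these were 9.68% to 14.3% and 2.75% to 3.64%. The pro-survival sum was itself lower in Treg, at 213 to 269 CPM per kb in WT Tn and 161 to 179 in WT Treg, while the effector sum was higher, at 48.2 to 61.6 and 90.4 to 101 CPM per kb. These sums cover the 10 members only, describe transcript levels and carry no test. Other BH3-only genes are outside them. In WT, mean Bid was 16.8 CPM in Tn and 20.6 CPM in Treg, Bad 8.03 and 10.4, and Bik 0.762 and 1.65. Bmf was at 5.23 and 1.24 CPM. The pro-survival gene Bcl2l2 (1.22 and 11.8 CPM in WT) is also outside them. The fall of the BH3-only sum is thus that of the 3 members.

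**Figure D3:**
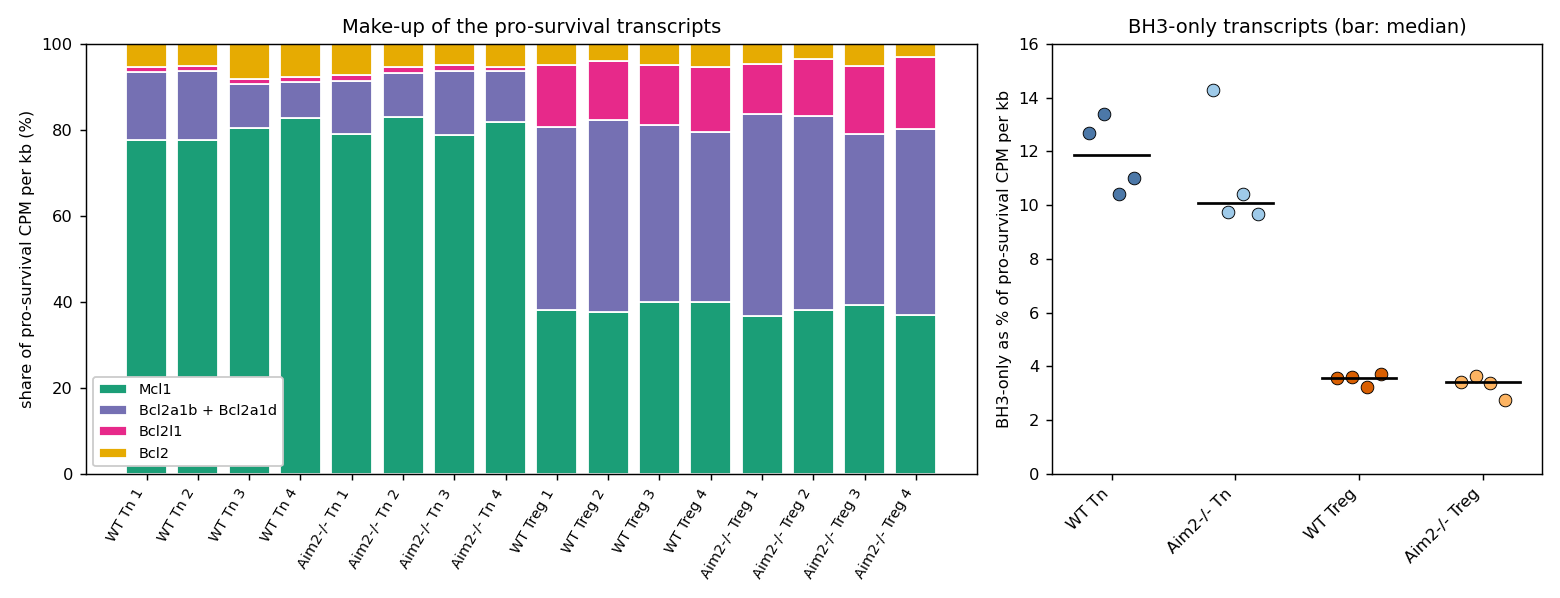
Left, the share (%) of the summed pro-survival CPM per kb held by Mcl1, Bcl2a1b with Bcl2a1d, Bcl2l1 and Bcl2 in each of the 16 libraries (1 stacked bar each). Right, the sum of the 3 BH3-only members as a percentage of the sum of the 5 pro-survival members in each library (points, with a bar for the median). It lay between 9.68% and 14.3% in Tn and between 2.75% and 3.71% in Treg.

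Other measures moved with the culture. Summed proliferation markers (6 genes) were at 248 to 348 CPM in WT Tn and 4103 to 4444 CPM in WT Treg, and summed naïve markers (6 genes) at 4188 to 5908 and 715 to 1055 CPM. General T cell markers (6 genes) summed to 3635 to 4099 CPM in WT Tn and 1773 to 1880 CPM in WT Treg. Markers of other cells were low and fell further: myeloid markers (7 genes) summed to 4.19 to 10.1 CPM in WT Tn and 0.482 to 1.65 CPM in WT Treg, and NK cell markers (4 genes) to 7.43 to 18.2 and 0.778 to 2.54 CPM. B cell markers (6 genes) summed to at most 3.19 CPM and CD8 markers (2 genes) to at most 12.2 CPM in any library. Their part in the changes of the members was not tested.

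Between the genotypes, no member was called in either state. In Tn, 0 of 10 members were called, where 31 of 13441 genes (0.231%) were, and 0 had an unadjusted p under 0.05. DESeq2 and limma-voom also called 0. In Treg, 0 of 10 were called by each of these tools, where edgeR called 29 of 13221 genes (0.219%), and 0 had an unadjusted p under 0.05. Ranges of the genotypes overlapped for all 10 members in both states, whereas 6.95% of all genes in Tn and 2.26% in Treg had separate ranges. The largest differences in Tn were those of Pmaip1 and Bcl2l11, with log2 fold changes of 0.35 (95% interval -0.84 to 1.55, adjusted p = 0.84) and -0.29 (95% interval -0.95 to 0.37, adjusted p = 0.75). Leaving out 1 library at a time moved these values between 0.05 and 0.93 for Pmaip1 and between -0.51 and -0.1 for Bcl2l11, so their place in the order rests on single libraries.

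How large a difference these libraries could have hidden varied with the gene. Mcl1 was at 654 ± 62.1 CPM in WT Tn and 718 ± 16.1 CPM in Aim2-/- Tn (SD, n = 4 each), and the 95% interval of its log2 fold change was -0.06 to 0.34. In Treg the interval was -0.15 to 0.10 for Mcl1, -0.17 to 0.21 for Bcl2l1, -0.10 to 0.25 for Bcl2a1b and -0.09 to 0.24 for Bax. Those of Bcl2l11 (-0.79 to 0.28), Bcl2 (-0.57 to 0.20), Pmaip1 (-0.36 to 0.49), Bcl2a1d (-0.26 to 0.46) and Bbc3 (-0.46 to 0.21) were wider. In Tn they were wider still for Bcl2a1d (-0.87 to 0.58) and Bcl2a1b (-0.54 to 0.73). These intervals do not show that the genotypes were alike. The median log2 fold change of the members was 0.14 in Tn and 0.04 in Treg, beside 0.01 and 0.00 for all genes.

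Whether culture acted differently in the genotypes was asked with an interaction term over all 16 libraries. It called 0 of 10 members, where 3 of 14669 genes (0.0205%) were called, with 0 members at an unadjusted p under 0.05 and 0 called by DESeq2 or limma-voom. The estimates lay between -0.28 for Pmaip1 (95% interval -1.51 to 0.96) and 0.25 for Bcl2a1d (95% interval -0.56 to 1.06). The narrowest interval was that of Mcl1, with a difference of -0.15 (-0.36 to 0.06).

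The Tn values behind these comparisons were uneven, mostly in WT. Replicates 1 and 2 of WT Tn exceeded replicates 3 and 4 in Bcl2l11, Bcl2a1b, Bcl2a1d, Pmaip1, Mcl1 and Bbc3, and were below them in Bcl2, Bax and Bak1. The same replicates stood apart in other genes. Cdkn1a, a cell cycle inhibitor, was at 9.36, 15.8, 0.549 and 1.16 CPM in WT Tn and 9.44, 3.87, 3.30 and 4.17 CPM in Aim2-/- Tn. Tnfrsf10b, a TRAIL receptor, was at 60.8, 76.3, 10.9 and 16.7 CPM and at 41.4, 36.6, 22.4 and 30.9 CPM. Rel, an NF-kB subunit, was at 213, 268, 47.2 and 70.2 CPM in WT Tn, and Ccr7, a homing receptor of naïve cells, at 1381, 1564, 411 and 418 CPM. These genes were picked after their values had been seen. Of the 12 listed targets of p53, which include Cdkn1a and Tnfrsf10b, WT Tn replicates 1 and 2 were both above replicates 3 and 4 in 7 and both below in 3, among them Ccng1 with 93, 86.5, 128 and 111 CPM. The share of all genes with such a split was not counted. The split can therefore not be read as particular to the members or to p53 targets. Nothing in the labels marks these replicates as batches. Between these pairs of replicates the genotype values differed too. Within replicates 1 and 2, Bcl2a1b had an Aim2-/- against WT log2 fold change in Tn of -0.51 (adjusted p = 0.19). Within replicates 3 and 4 it was 0.87 (adjusted p = 0.018). Replicates 1 and 2 called 0 members and 28 of 13674 genes. Replicates 3 and 4 called 1 member and 499 of 13503 genes. Pmaip1 gave -0.13 and 1.42 (adjusted p = 0.91 and 0.061). All 10 members kept their culture call in each genotype within replicates 1 and 2 and within replicates 3 and 4. Most genes were called there too: 11258 of 14228 and 10147 of 13864 in WT, and 10429 of 14129 and 10473 of 13979 in Aim2-/-. Markers of B cells summed to 1.54 to 2.11 CPM in WT Tn and 2.44 to 3.19 CPM in Aim2-/- Tn, and red cell markers (5 genes) to 1.23 to 3.97 and 5.13 to 7.94 CPM. Their part was not tested.

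**Figure D4:**
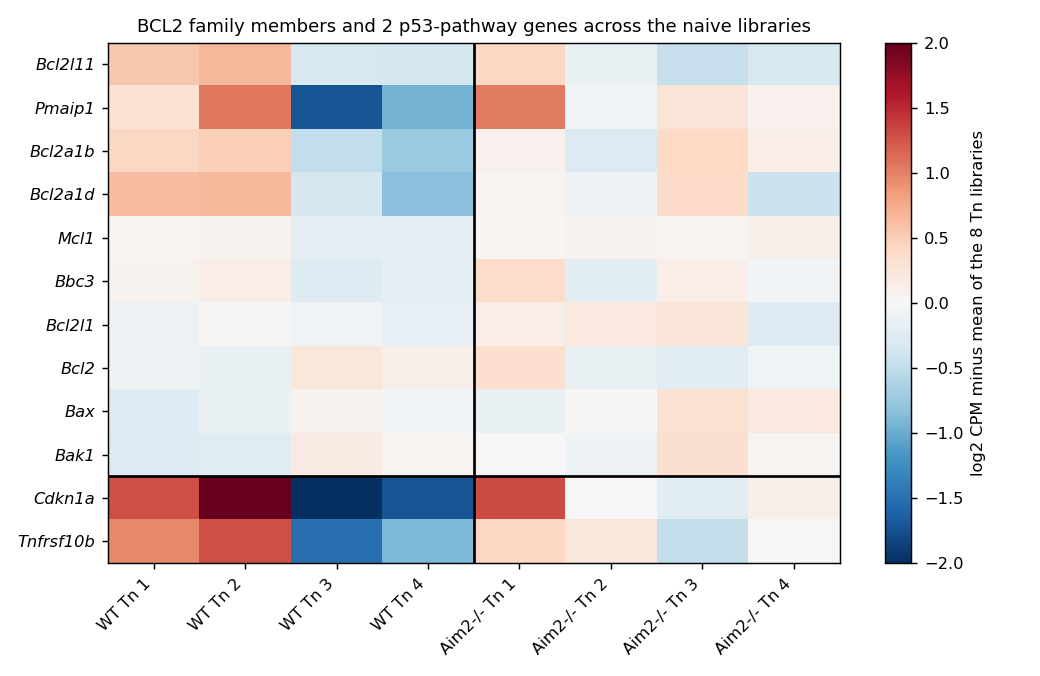
Log2 CPM of the 10 members, Cdkn1a and Tnfrsf10b (rows) in the 8 Tn libraries (columns), as the difference from the mean of the 8 (colour, red above and blue below). WT replicates 1 and 2 are red and replicates 3 and 4 blue in Bcl2l11, Pmaip1, Bcl2a1b, Bcl2a1d, Cdkn1a and Tnfrsf10b.

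Across libraries of 1 state, after removing each group's mean, some members varied together. In the 8 Tn libraries Pearson's r of these deviations was 0.89 for Bcl2l11 with Pmaip1, 0.91 for Bcl2a1b with Bcl2a1d and -0.83 for Bcl2l11 with Bax. In the 8 Treg libraries it was 0.63, 0.95 and -0.83. Other pairs did not hold in both states. Bbc3 with Pmaip1 had 0.84 in Tn and -0.39 in Treg, Bcl2a1b with Bbc3 0.72 and -0.68, and Bax with Bak1 0.79 and -0.03. The Tn deviations also contain the split between the WT replicates described above. Values from 1 library share its depth and cell make-up, and Bcl2a1b and Bcl2a1d share reads, so these are descriptions. Over all 16 libraries, where the difference between the states dominates any such likeness, the genes most like each member in log2 CPM among 14669 were Npas2 and Dyrk3 for Bcl2l1 (r = 0.997 each), Jak1 (0.998) and Arap2 (0.996) for Bcl2l11, and Dnajb9 and Zrsr1 for Mcl1 (0.998 each). They were Abtb2 (0.996) and Gimap1os (0.995) for Bbc3, Adprh (0.997) and Eef1akmt1 (0.992) for Bak1, and Rbbp4 and Rraga for Bcl2a1d (0.988 each). The remaining pairs were Fam83d (0.975) and Bhlhe40 (0.973) for Pmaip1, Fkbp2 (0.973) and Ndufb3 (0.971) for Bax, Nlrp1b (0.965) and Nipal3 (0.964) for Bcl2, and Med11 (0.96) and Emc3 (0.959) for Bcl2a1b.

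The rest of the BCL2 family was measured more thinly. Of 15 other family genes, 8 passed the filter in WT, of which 4 rose, 2 fell and 2 were not called. Bcl2l2, which encodes the pro-survival protein BCL-W, rose from 1.22 ± 0.423 to 11.8 ± 1.64 CPM in WT (SD, n = 4 each), by 3.25 on the log2 scale (standard error 0.23, adjusted p = 9.5e-07), and by 2.84 in Aim2-/-. Bmf, a BH3-only gene, fell by 2.11 on the log2 scale in WT (adjusted p = 0.00036) and by 2.49 in Aim2-/-, and Bnip3l, a mitophagy receptor, by 1.95 and 1.87. Bik (1.07 in WT), Bcl2l13 (0.35) and Bad (0.34) rose, and Bid (0.27, adjusted p = 0.079) and Bnip3 (-0.13, adjusted p = 0.40) were not called. In Aim2-/-, 9 were tested, of which 3 rose, 3 fell and 3 were not called: Bcl2l14 was tested there alone (-2.70, adjusted p = 0.00061, mean levels below 1 CPM) and Bad was not called (0.22, adjusted p = 0.15). Their median log2 fold change was 0.30 in WT and 0.22 in Aim2-/-.

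Downstream of the mitochondria, 8 of 12 apoptosome and caspase genes rose in WT, 3 fell and 1 was not called, with 9, 3 and 0 in Aim2-/-. The median was 0.53 and 0.43. Cycs, the gene of cytochrome c, was at 55.4 ± 1.98 CPM in WT Tn and 229 ± 18.6 CPM in WT Treg (log2 fold change 2.01). The serine protease gene Htra2 rose by 1.74 in WT and 1.65 in Aim2-/- on the log2 scale. Aifm1, of the mitochondrial flavoprotein AIF, had 1.28 and 1.38. Casp9, the initiator caspase of the apoptosome, fell by 0.82 in WT (adjusted p = 0.0016).

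Inhibitors of apoptosis were divided. Birc5, which encodes survivin and also serves cell division, had a log2 fold change of 7.0 in WT and 7.19 in Aim2-/-, from 1.19 ± 0.463 to 155 ± 3.84 CPM in WT (SD, n = 4 each). Birc2, the gene of cIAP1, fell by 2.13 and by 2.17 on that scale. Of the 5 genes, 2 rose, 2 fell (Birc6 with -0.50 in WT) and 1 was not called in WT, and 2 rose and 3 fell in Aim2-/-. The median was -0.45 and -0.30.

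Of 10 genes of the death receptor pathway, 2 rose, 4 fell and 4 were not called in WT, and 2, 6 and 2 in Aim2-/- (medians -0.27 and -0.32). The TNF receptor gene Tnfrsf1a had -1.89 and -1.72, the ligand gene Fasl -1.83 and -1.78, Fas itself -0.99 and -0.80, and the adaptor gene Fadd 1.12 and 1.14. Ripk1, a kinase of the receptor complexes, had 0.38 and 0.61.

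Among 10 genes of the outer membrane and of MCL1 turnover, 6 rose, 1 fell and 3 were not called in WT, and of 9 tested in Aim2-/- 7 rose, 1 fell and 1 was not called (medians 1.05 and 1.54). The channel genes Vdac1 (2.19 and 2.25), Vdac2 (1.43 and 1.54) and Vdac3 (1.55 and 1.64) rose, as did Mtch2, an outer membrane insertase (1.71 and 1.80), and Hspa9, a mitochondrial chaperone (1.61 and 1.73). Usp9x, a deubiquitinase that stabilises MCL1, rose by 0.67 and 1.03, and the ubiquitin ligase gene Huwe1 had 0.08 and 0.19 with no call in either genotype.

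Transcription factors known to act on the members included 5 that rose, 4 that fell and 2 that were not called of 11 tested in WT, and 6 and 5 in Aim2-/- (medians 0.29 and 0.37). E2f1 had 4.03 and 4.23, Nfkb1 1.24 in both, and Myc 1.81 and 1.74. Foxo3 had -1.27 and -1.23, Foxo1 -1.13 and -1.06, and Ddit3, a factor of the stress response, -2.03 and -2.18. Transcript levels of a factor do not give its activity.

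Targets of p53 gave 4 higher, 3 lower and 4 not called of 11 in WT, and 6, 3 and 2 in Aim2-/- (medians 0.39 and 0.37). Gtse1, which also peaks in dividing cells, had 4.52 and 4.43, Sesn1, a stress sensor, -1.86 and -1.95, Mdm2, the ligase for p53, -0.65 and -0.68, and the nuclease gene Aen 0.87 and 0.61. Cdkn1a was not called in WT (1.85, standard error 0.79, adjusted p = 0.057) and was called in Aim2-/- (2.17, standard error 0.30, adjusted p = 5.3e-05).

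**Figure D5:**
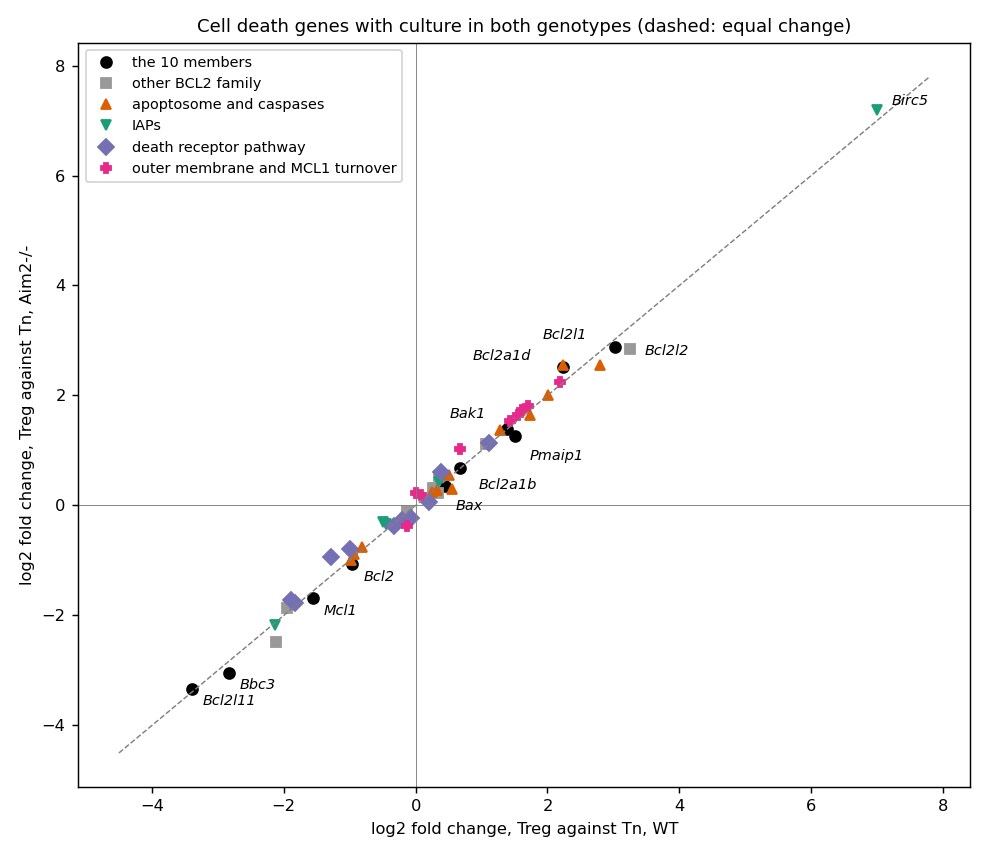
Log2 fold change of Treg against Tn in WT (horizontal) and in Aim2-/- (vertical) for the 10 members and 5 lists of other cell death genes, 1 symbol per gene, with a dashed line of equal change. Points lie near the line, from Bcl2l11 (-3.39 and -3.33) to Birc5 (7.0 and 7.19).

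For genotype, 0 genes of these lists were called in either state by edgeR. Those with an unadjusted p under 0.05 were, in Tn, Usp9x (log2 fold change -0.46, adjusted p = 0.26), Birc6 (-0.36, adjusted p = 0.39), Aen (0.31, adjusted p = 0.41), Huwe1 (-0.27, adjusted p = 0.46) and Ripk1 (-0.17, adjusted p = 0.46), and in Treg Bik (0.47, adjusted p = 1). Mean Usp9x in Tn was 135 CPM (SD 12.1) for WT and 97.9 CPM (SD 12.2) for Aim2-/-, with 4 libraries each, and Birc6 in Treg had an unadjusted p of 0.05 (-0.19, adjusted p = 1).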

How the data were processed

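The authors sequenced stranded mRNA libraries as single 51-base reads, aligned them to GRCm38 with STAR and counted genes with RSEM (GENCODE m15; both tools, and limma, are also named in the submitters' processing notes), and deposited 1 table of expected counts per library (whole or fractional, not normalised). Versions of STAR and RSEM are not given in the sources used here. Expected counts of the 16 libraries were joined by row, rounded for the tests, and grouped by the labels. Coordinates and exon lengths were taken from GENCODE M21 (GRCm38), which matched 98.7% of 53090 rows. CPM was computed with TMM factors over the 16 libraries.

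Each comparison was fitted with edgeR 4.0.16 (quasi-likelihood test, robust, R 4.3.3) on its 8 libraries, or 16 for the interaction, over genes that reached 10 counts in 4 or more of them, with Benjamini-Hochberg adjustment and a threshold of 0.05. The fits were tested on simulated data. Where a level is compared over genes, it is per kb of merged exons. Intervals cover these libraries only, and depth was 22516424 to 34533316 counts per library.

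All 10 members are named, with every other family gene that passed the filter in a culture comparison, up to 3 genes with the smallest p per list and comparison, and the 2 genes most like each member. Casp9, Foxo1, Cdkn1a, Tnfrsf10b, Rel, Ccr7 and Ccng1 were named after their values were seen. Some genes of the lists are not reported here. The members and the lists were chosen with earlier results of these data known.

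Replicate numbers are those of the titles; the deposited tables number some libraries otherwise. Same-numbered libraries did not deviate together in every pair (r of -0.04 to 0.49 over the 4 comparisons), so replicate numbers were not used for pairing. Alternatives were DESeq2 1.42.0, limma-voom (limma 3.58.1), other scalings and filters, all libraries in one fit, a replicate block, replicates 1 and 2 or 3 and 4, summed Bcl2a1 rows, and leaving out each library.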

Additional observations from a re-analysis of the deposited data

Results flagged for a closer look

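Bbc3 in replicate 4 of WT Treg, at 6.11 CPM, stood apart from the other libraries of its group, which were at 4.89 to 5.01 CPM. Its gap to the nearest library was 0.903 of the group's range, above Dixon's 95% critical value for 4 samples. It was 1 of 44 sets of 4 libraries examined, and chance flags about 1 in 20.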

How the results depend on the processing

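All 10 culture calls kept their direction in both genotypes under every alternative, and 9 or 10 were called. The fits reported above called 76.9% of all genes for culture in WT and 79.3% in Aim2-/-. The exceptions in Bcl2a1b and Bax are given with those genes above. With replicates 3 and 4 only, 1 member was called for genotype in Tn, where 499 of 13503 genes were called. Other settings called 0 members. Replicate numbers were not shown to pair the libraries. With a replicate block the members called were 0 and 0 for genotype in Tn and Treg, 10 and 10 for culture in WT and Aim2-/-, and 0 for the interaction, and over all genes 29, 41, 10352, 10859 and 2. In each comparison at most 2 of 4 libraries correlated best with the library of their own number.

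Uncalled values changed sign as follows (log2). With replicates 1 and 2 only, genotype in Tn gave 0.23 for Bcl2, -0.51 for Bcl2a1b and -0.13 for Pmaip1, genotype in Treg gave -0.11 for Bcl2l1, 0.05 for Mcl1 and 0.00 for Bcl2l11, and the interaction gave 0.04 for Mcl1, 0.64 for Bcl2a1b and 0.30 for Pmaip1. With replicates 3 and 4 only, genotype gave 0.59 for Bcl2a1d in Tn and -0.02 for Bcl2a1d and -0.06 for Pmaip1 in Treg, and the interaction gave 0.01 for Bcl2, 0.03 for Bcl2l1, -0.60 for Bcl2a1d, 0.11 for Bak1 and -0.54 for Bcl2l11. The interaction of Bcl2l11 was -0.05 with limma-voom, -0.03 with the replicate block and -0.05 with a term for replicates 1 and 2 against 3 and 4. With no filter it was 0.02 for Bcl2a1b and 0.01 for Bak1. With the Bcl2a1 rows summed, genotype in Tn gave 0.05 and the interaction 0.05. Leaving out 1 library at a time, genotype in Tn ranged from -0.19 to 0.02 for Bcl2, -0.10 to 0.29 for Bcl2a1b and -0.37 to 0.06 for Bcl2a1d, and in Treg from -0.03 to 0.21 for Bcl2a1d, -0.06 to 0.07 for Bcl2l1, -0.06 to 0.00 for Mcl1 and -0.05 to 0.19 for Pmaip1. The interaction ranged from -0.09 to 0.06 for Bak1, -0.26 to 0.00 for Bcl2, -0.21 to 0.19 for Bcl2a1b, -0.18 to 0.24 for Bcl2l11 and -0.86 to 0.03 for Pmaip1. The cause was not tested.

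Over all genes, 31 were called for genotype in Tn, against 128 with DESeq2, 47 with no filter, 50 with all libraries in one fit, 51 with the term for replicates, 499 with replicates 3 and 4 only, 18 with 10 counts in every library and 17 to 28 without 1 library. In Treg 29 were called, against 52 with DESeq2, 17 with 10 counts in every library, 5 with replicates 3 and 4 only and 10 to 17 without 1 library. The interaction called 3, and 10 with DESeq2, 0 with 10 counts in every library and 2 to 5 without 1 library. Pmaip1 had 16 to 258 counts per library, and Bcl2a1b and Bcl2a1d share most of their sequence words with other genes. Whether depth set the spread of Pmaip1 was not tested.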
